A study of Mus musculus with 11 samples.

Results

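Transcription factors that direct myeloid and dendritic cell fate were followed in CLPs, the common lymphoid progenitors of bone marrow, from which lymphocytes arise. Of 10 factors named for the purpose, 8 (Spi1, Cebpa, Cebpb, Gfi1, Klf4, Irf8, Batf3 and Zbtb46) had a probe set that carried their symbol alone, among 22180 genes measured that way. Zeb2 and Irf5 had only probe sets shared with other symbols, Zeb2 with Zeb2os or Mir5129 and Irf5 with Tnpo3, and were not analysed here. The members were chosen by name for their known roles, with earlier results of these data known, so the tests are not independent of that choice. RNA came from C57BL/6 mice, whose age the labels do not give, dosed every other day over 10 days with 50 µg of CpG1826 or with PBS. CpG1826 is a synthetic oligonucleotide that activates Toll-like receptor 9. On day 10 the CLPs were sorted by surface Ly-6D, a protein that appears as CLPs turn towards B cells. The arrays numbered 3 for Ly-6D+ CLPs after CpG, 2 for Ly-6D+ CLPs after PBS, 3 for Ly-6D- CLPs after CpG and 3 for Ly-6D- CLPs after PBS. Whether a replicate was 1 animal or a pool, and whether both populations came from the same mice, is not in the labels. A p therefore covers the spread between these arrays and no more. All levels are log2 values on the scale of the RMA method, and levels of different genes are not compared with each other.

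As background, a small set of DNA-binding proteins steers blood progenitors towards myeloid or dendritic fates. Spi1 encodes PU.1, an ETS-family factor needed for the myeloid and much of the lymphoid lineage. Cebpa and Cebpb encode C/EBP leucine-zipper factors, the first required for granulocyte and monocyte progenitors and the second best known for granulocyte production during infection. Gfi1 encodes a zinc-finger repressor that favours granulocytes over monocytes. Klf4 encodes a zinc-finger factor that promotes monocyte differentiation. Irf8 encodes an interferon regulatory factor that monocytes and dendritic cells depend on, and that B lineage cells also express. Batf3 encodes an AP-1-family factor required for cross-presenting conventional dendritic cells, and Zbtb46 a zinc-finger factor that marks the conventional dendritic lineage.

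Promoters of 4 members are shown because the results below turn on these genes: Irf8 and Cebpa differed between the populations after PBS, Klf4 rose with CpG in Ly-6D- CLPs, and Batf3 rose in the average of both populations. The sequences are from RefSeq (GRCm38.p6) and run from 250 bases before the gene's start to 50 bases after it, 5′ to 3′ on the gene's strand, with motif matches in capitals. The Irf8 window is chr8:120736108-120736407 (plus strand), the Batf3 window chr1:191098164-191098463 (plus), the Klf4 window chr4:55532426-55532725 (minus) and the Cebpa window chr7:35119043-35119342 (plus).
Irf8: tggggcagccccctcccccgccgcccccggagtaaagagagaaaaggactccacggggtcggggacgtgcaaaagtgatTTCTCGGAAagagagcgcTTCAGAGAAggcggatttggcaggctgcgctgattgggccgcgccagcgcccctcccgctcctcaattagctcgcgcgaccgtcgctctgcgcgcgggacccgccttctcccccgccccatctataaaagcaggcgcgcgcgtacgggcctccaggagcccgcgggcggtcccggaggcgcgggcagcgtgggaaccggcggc
Batf3: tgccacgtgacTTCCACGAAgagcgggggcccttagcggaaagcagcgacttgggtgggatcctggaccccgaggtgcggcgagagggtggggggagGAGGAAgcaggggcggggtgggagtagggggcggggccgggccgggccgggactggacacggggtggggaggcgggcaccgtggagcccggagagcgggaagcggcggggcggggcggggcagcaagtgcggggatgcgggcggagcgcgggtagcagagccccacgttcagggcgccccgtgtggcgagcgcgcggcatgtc
Klf4: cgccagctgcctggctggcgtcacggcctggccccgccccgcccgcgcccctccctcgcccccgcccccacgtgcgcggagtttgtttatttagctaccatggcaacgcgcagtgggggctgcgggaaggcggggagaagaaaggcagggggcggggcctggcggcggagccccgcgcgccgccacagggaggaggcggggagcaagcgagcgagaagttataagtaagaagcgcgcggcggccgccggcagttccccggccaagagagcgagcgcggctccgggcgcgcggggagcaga
Cebpa: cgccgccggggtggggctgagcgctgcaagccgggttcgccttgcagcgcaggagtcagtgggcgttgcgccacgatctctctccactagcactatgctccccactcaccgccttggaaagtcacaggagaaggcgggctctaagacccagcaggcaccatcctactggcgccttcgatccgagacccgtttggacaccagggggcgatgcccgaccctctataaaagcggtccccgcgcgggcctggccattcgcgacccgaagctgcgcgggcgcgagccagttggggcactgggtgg

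The search covered 5 motifs on both strands: TTCNNNGAA (a STAT site), GAGGAA (an ETS site of the kind PU.1 binds), GAAANNGAA (the core of an interferon-stimulated response element), GGAANNGAA (an ETS-IRF composite) and TTGCNNAA (a C/EBP site). The Irf8 window held TTCNNNGAA at 2 places, as TTCTCGGAA starting 171 bases and TTCAGAGAA starting 153 bases before the gene's start. The Batf3 window held the same motif once, as TTCCACGAA starting 239 bases before the start, and GAGGAA starting 153 bases before it. The Klf4 and Cebpa windows held none of these letters. A second Irf8 window in the table held none of the 5. Over all 27025 genes in the table, 9.55% held TTCNNNGAA in at least 1 window, 31.3% GAGGAA, 9.76% GAAANNGAA, 9.42% GGAANNGAA and 12.2% TTGCNNAA. Among the 7 measured members with an entry in the RefSeq table (all except Spi1), TTCNNNGAA was present in 2 and GAGGAA in 1, in each case as above. TTGCNNAA was present in 1, Gfi1, as TTGCTGAA, and the other motifs in 0. The matches overlapped no other motif searched. A match describes the letters of the window only.

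Defining markers of CLPs and of other cells were read in each group. The mean level of Il7r, the interleukin 7 receptor chain of early lymphoid cells, was 10.71, 10.74, 9.25 and 10.06 in Ly-6D+ CpG, Ly-6D+ PBS, Ly-6D- CpG and Ly-6D- PBS CLPs. Dntt, the terminal transferase of lymphoid progenitors, averaged between 12.01 and 12.30 in the 4 groups. Ly6d, the sorting gene, averaged 12.57 and 12.58 in Ly-6D+ CLPs (CpG and PBS) and 7.72 and 8.23 in Ly-6D- CLPs. The monocyte gene Cd14 averaged 3.32 to 3.68, the T cell gene Cd3e 2.98 to 3.62, the B cell gene Ms4a1 2.55 to 3.15 and the NK cell gene Ncr1 3.23 to 3.40 across the groups, and RMA values have no true 0. Cd14 does not stand for the monocyte genes as a set. Of 21 monocyte and macrophage genes, 19 were higher and 2 lower after CpG in Ly-6D- CLPs (median 0.52). Csf1r, 1 of them, averaged 7.00, 6.69, 8.68 and 7.61 in Ly-6D+ CpG, Ly-6D+ PBS, Ly-6D- CpG and Ly-6D- PBS CLPs. Group means of other myeloid and dendritic markers ran from 9.15 to 10.93 for Mpo. They ran from 8.31 to 8.92 for Elane, 6.14 to 7.54 for Itgax and 7.85 to 10.97 for Siglech. The part of these markers' cells in the factors' levels was not tested. In bulk samples fewer cells of a type and less RNA per cell cannot be told apart.

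One array stood apart within its group for these factors. Replicate 3 of the Ly-6D- CpG CLPs had the lowest level of its 3 arrays for 5 of 8 factors (Spi1, Cebpa, Cebpb, Klf4 and Batf3) and for 15 of 21 monocyte and macrophage genes, against 32.2% of all genes. The summed linear level of those 21 genes was 11057, 10098 and 7801 in Ly-6D- CpG replicates 1, 2 and 3, against 6001, 6147 and 5717 in the Ly-6D- PBS arrays. The factors' results that turn on the array are given with and without it, as are some changes in the counts of the gene lists. Leaving it out raises the Ly-6D- CpG mean of those 5 factors and 15 monocyte genes by construction, since they were lowest on it. That moves their CpG difference in Ly-6D- CLPs up, and their Ly-6D+ minus Ly-6D- difference after CpG down. Where the array lay far from the others of its group, as for Batf3, leaving it out also narrows the shared spread. That spread enters every comparison, so a smaller adjusted p there is partly built in. The part of the monocyte genes in the factors' levels was not tested.

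**Figure D1:**
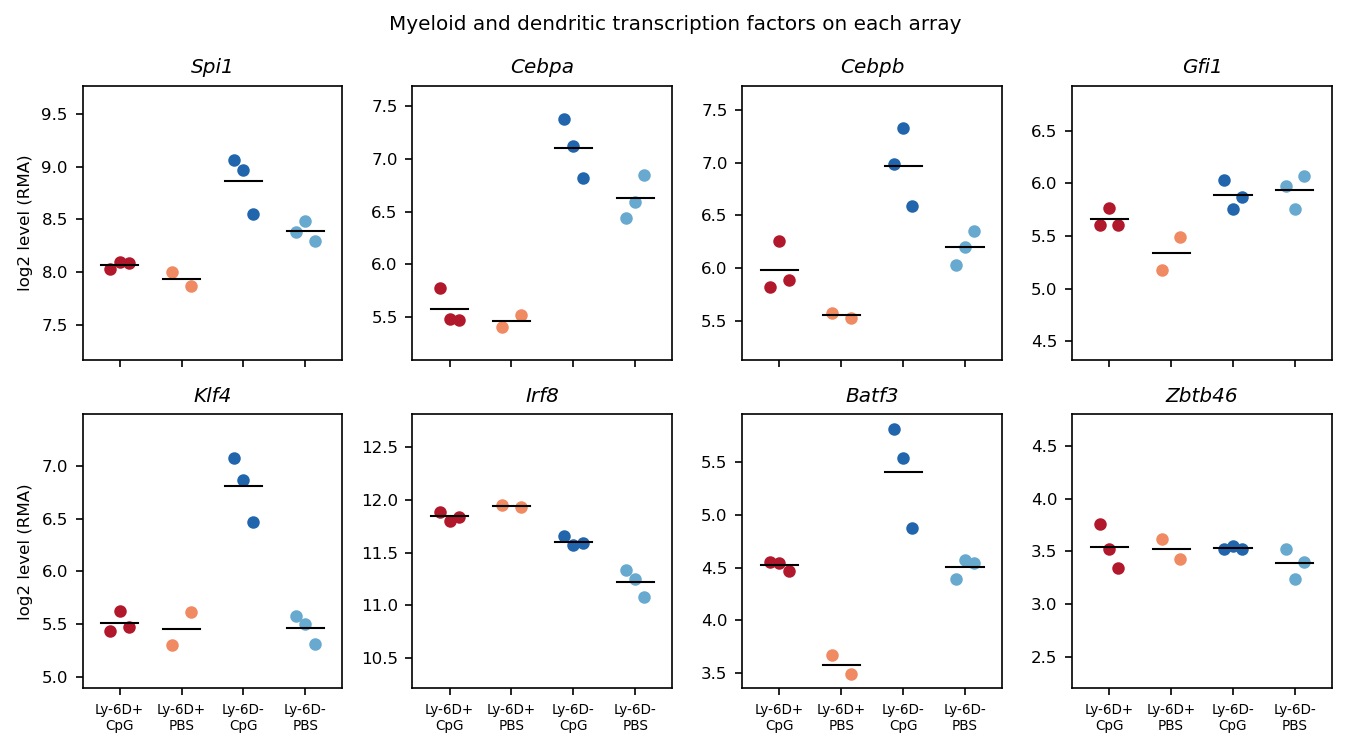
Log2 level (RMA, y axis) of each of the 8 factors on every array, by population and treatment (x axis), with 1 point an array in replicate order and a line at the group mean; every panel spans the same height. The 3 Ly-6D- CpG arrays stand above all others for Klf4, the 2 Ly-6D+ PBS arrays lie lowest for Batf3, and the Ly-6D- PBS arrays lie lowest for Irf8.

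The first comparison asked how CpG treatment changed these factors in Ly-6D- CLPs. Klf4 was 2.54-fold higher, and it was the only 1 of 8 past an adjusted p of 0.05 over all genes. In limma 6 of 8 factors (all but Gfi1 and Zbtb46) had an unadjusted p under 0.05, as did 12% of all genes. Of the factors, 7 had a higher mean after CpG and 1, Gfi1, a lower one, and the median difference of the 8 was 0.48 on the log2 scale, against -0.00 over all genes. Of all genes, 0.302% passed as higher and 0.243% as lower. The 2 groups' arrays were fully separated for 5 of 8 factors (Klf4, Batf3, Cebpb, Spi1 and Irf8), all higher after CpG, and for 15.7% of all genes.

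Klf4 had levels of 7.08, 6.87 and 6.47 in Ly-6D- CLPs after CpG, against 5.58, 5.50 and 5.31 after PBS. Each CpG array was above each PBS array by more than the spread within either group. The log2 difference was 1.34 (SE 0.16, 95% interval 0.997 to 1.69, limma adjusted p = 0.0101). It was 1.51 (adjusted p = 0.00213) without Ly-6D- CpG replicate 3. The call ended without Ly-6D- CpG replicate 2 (adjusted p = 0.0631), without Ly-6D- PBS replicate 3 (adjusted p = 0.0545) and in a fit of these 2 groups alone (adjusted p = 0.101).

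Batf3, the dendritic AP-1 factor, had levels of 5.82, 5.54 and 4.87 in Ly-6D- CLPs after CpG, against 4.39, 4.57 and 4.55 after PBS. The groups did not overlap, but the CpG arrays were spread over about as much as the difference itself. That difference was 0.91 (SE 0.19, adjusted p = 0.0755) and did not pass. Without Ly-6D- CpG replicate 3 it was 1.17 (adjusted p = 0.00292), and without replicate 2 it was 0.84 (adjusted p = 0.245).

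Of the early myeloid factors Cebpb, Spi1 and Cebpa, none passed with all arrays. Cebpb had levels of 6.99, 7.33 and 6.59 in Ly-6D- CLPs after CpG, against 6.03, 6.20 and 6.36 after PBS (difference 0.77, SE 0.18, adjusted p = 0.104). Spi1 had levels of 9.06, 8.97 and 8.55 after CpG, against 8.38, 8.49 and 8.29 after PBS (difference 0.47, SE 0.13, adjusted p = 0.156). For both factors the lowest CpG array lay above the highest PBS array. Without Ly-6D- CpG replicate 3, Cebpb differed by 0.96 (adjusted p = 0.0252) and Spi1 by 0.63 (adjusted p = 0.0199). In that fit 4 of 8 factors passed, and so did 309 of all genes, against 121 with all arrays. Cebpb and Spi1 differed by 0.59 (adjusted p = 0.305) and 0.42 (adjusted p = 0.410) without Ly-6D- CpG replicate 2. Cebpa had levels of 7.38, 7.13 and 6.82 after CpG, against 6.44, 6.60 and 6.85 after PBS. Its lowest CpG array lay just below its highest PBS array, and the difference of 0.48 (SE 0.16) did not pass with all arrays (adjusted p = 0.242) or without replicate 3 (adjusted p = 0.0952).

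Irf8 had levels of 11.65, 11.57 and 11.59 in Ly-6D- CLPs after CpG, against 11.33, 11.25 and 11.08 after PBS. The CpG arrays lay close together and all above the PBS arrays, with a difference of 0.39 (SE 0.09, adjusted p = 0.0989) that did not pass, nor did it without Ly-6D- CpG replicate 3 (adjusted p = 0.113). A second Irf8 probe set gave 10.13, 10.02 and 10.00 after CpG, against 9.78, 9.56 and 9.58 after PBS, again without overlap. Gfi1 differed by -0.05 (95% interval -0.32 to 0.23) and Zbtb46 by 0.15 (-0.12 to 0.42), and the arrays of both groups overlapped for each.

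In Ly-6D+ CLPs, which are nearer the B lineage, CpG moved 0 of 8 factors past the threshold in limma, with 0.0271% of all genes passing. At an unadjusted p under 0.05 there were 2 of 8 factors (Batf3 and Gfi1) and 1443 of 22180 genes. The median difference of the 8 was 0.13 on the log2 scale, against 0.00 over all genes. The 2 groups' arrays were fully separated for 5 of 8 factors, 4 higher and 1 lower after CpG, and for 20.4% of all genes, with 3 arrays against 2.

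Batf3 had levels of 4.55, 4.55 and 4.47 in Ly-6D+ CLPs after CpG, against 3.67 and 3.49 after PBS. The PBS levels lay below the array medians (3.85 to 3.96), and how far they stood above background is unknown. The groups stood far apart for the spread of their arrays, with a difference of 0.94 (SE 0.22, 95% interval 0.46 to 1.42) that did not pass (adjusted p = 0.291). Without Ly-6D- CpG replicate 3 the same difference passed (adjusted p = 0.0430). That array is of the other population and enters only the shared estimate of spread. Batf3 was lowest of its group on it, and leaving it out lowered the SE from 0.22 to 0.12. The pass is thus built into the choice of array and is no added support. Klf4 had levels of 5.44, 5.62 and 5.47 after CpG, against 5.30 and 5.61 after PBS. These overlapped, and the 95% interval of the difference ran from -0.33 to 0.44. Irf8 had levels of 11.89, 11.80 and 11.84 after CpG, against 11.95 and 11.94 after PBS. That was the member with the lower mean after CpG (difference -0.10, 95% interval -0.32 to 0.12). Cebpb had levels of 5.82, 6.26 and 5.88 after CpG, against 5.58 and 5.53 after PBS (difference 0.43, adjusted p = 0.792). Gfi1 had levels of 5.60, 5.76 and 5.61 after CpG, against 5.18 and 5.49 after PBS (difference 0.32, adjusted p = 0.738). Both stood above PBS on every CpG array, and neither passed. The differences of Spi1 (0.14), Cebpa (0.12) and Zbtb46 (0.02) had 95% intervals that included 0.

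**Figure D2:**
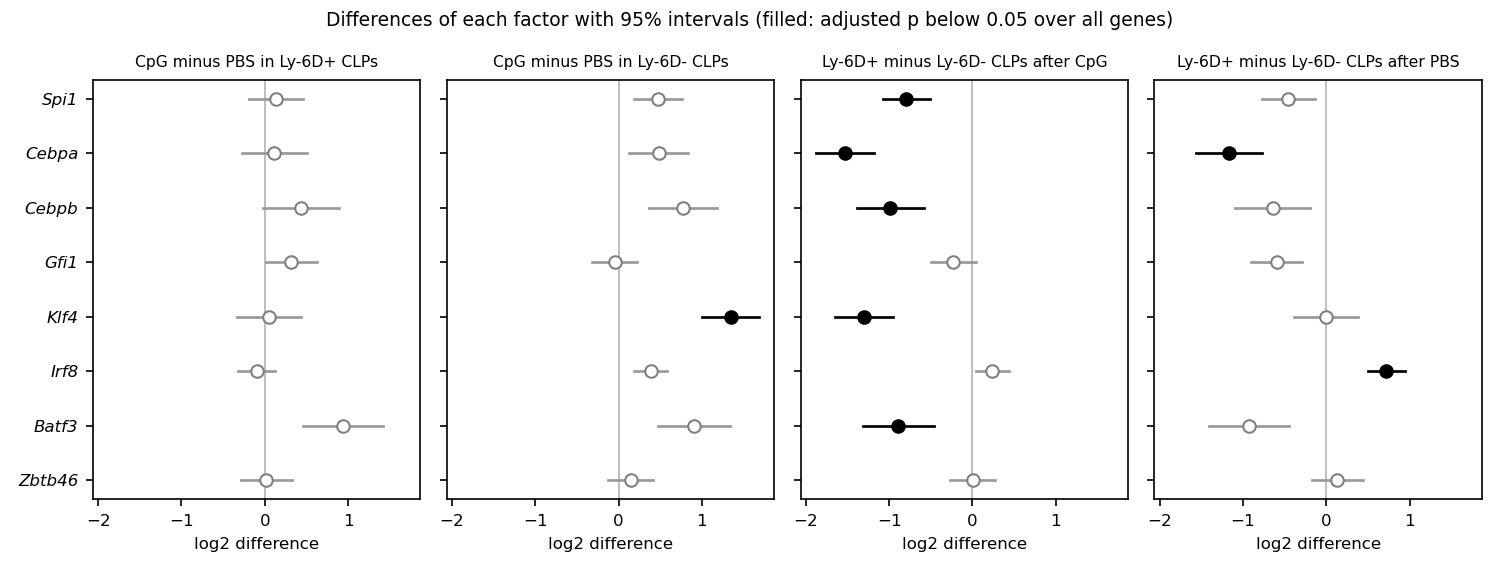
Log2 difference (x axis) of each factor in 4 comparisons, with its 95% interval from the fit over all 11 arrays; filled points have an adjusted p below 0.05 over all genes. With CpG, Klf4 in Ly-6D- CLPs is the filled point at 1.34; between the populations 5 factors are filled on the lower side after CpG, and after PBS Cebpa on the lower and Irf8 on the higher side.

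Averaged over both populations, Batf3 and Klf4 rose with CpG. Batf3 was 1.90-fold higher (log2 0.92, SE 0.15, adjusted p = 0.0309) and Klf4 1.62-fold (log2 0.70, SE 0.12, adjusted p = 0.0370), 2 of 8 factors, where 0.28% of all genes passed as higher and 0.203% as lower. Batf3 was higher after CpG in both populations, by 0.94 in Ly-6D+ and 0.91 in Ly-6D- CLPs, whereas for Klf4 the values were 0.05 and 1.34. Each call ended when any 1 array other than Ly-6D- CpG replicate 3 was left out, with adjusted p up to 0.118 for Batf3 and 0.161 for Klf4. Without that replicate 4 factors passed, Batf3 (log2 1.06, adjusted p = 7.19e-04), Klf4 (0.78, adjusted p = 0.00831), Cebpb (0.70, adjusted p = 0.0263) and Spi1 (0.38, adjusted p = 0.0427). With all arrays 5 of 8 factors had an unadjusted p under 0.05 in limma, as did 11.3% of all genes. Over all genes 107 passed with all arrays, and leaving out each array in turn gave 6 to 216.

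Whether CpG acted differently on the 2 populations was tested as the difference of its effects, Ly-6D+ minus Ly-6D-. In limma 0 of 8 factors and 0% of all genes passed, with 2 of 8 factors (Klf4 and Irf8) and 1413 genes at an unadjusted p under 0.05. For Klf4 the difference of effects was -1.29 (SE 0.23, 95% interval -1.81 to -0.77, unadjusted p = 2.21e-04, adjusted p = 0.488), and without Ly-6D- CpG replicate 3 it was -1.46 (adjusted p = 0.152). For Irf8 it was -0.48 (SE 0.13, 95% interval -0.78 to -0.19, adjusted p = 0.622). For Batf3 it was 0.04 with a 95% interval from -0.61 to 0.68, wide enough to hold a sizeable difference either way, and it was -0.23 (adjusted p = 0.796) without Ly-6D- CpG replicate 3. A response to CpG in 1 population and not in the other was thus not shown for any factor.

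The next comparisons asked how the populations differed under each treatment. They share arrays with the CpG comparisons and are not independent of them. After PBS, Ly-6D+ CLPs had more Irf8 RNA and less Cebpa RNA than Ly-6D- CLPs, and the other 6 factors did not pass. Among all genes 1.18% passed as higher and 0.798% as lower in Ly-6D+ CLPs. An unadjusted p under 0.05 in limma was reached by 6 of 8 factors and 11.9% of all genes. The arrays were fully separated for 6 of 8 factors, 1 higher and 5 lower in Ly-6D+ CLPs, and for 26.9% of all genes, with 2 arrays against 3. The median difference of the 8 was -0.52, against -0.01 over all genes.

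Irf8 had levels of 11.95 and 11.94 in Ly-6D+ PBS CLPs, against 11.33, 11.25 and 11.08 in Ly-6D- PBS CLPs. It was 1.65-fold higher (log2 0.72, SE 0.10, adjusted p = 0.00404). The call held without each array in turn and ended in a fit of these 2 groups alone (adjusted p = 0.0770). The second Irf8 probe set gave 10.74 and 10.69 in Ly-6D+ PBS CLPs, against 9.78, 9.56 and 9.58 in Ly-6D- PBS CLPs, a gap in the same direction. Cebpa had levels of 5.40 and 5.52 in Ly-6D+ PBS CLPs, against 6.44, 6.60 and 6.85 in Ly-6D- PBS CLPs. It was 2.25-fold lower (log2 -1.17, SE 0.18, adjusted p = 0.00670), and the call ended without Ly-6D+ PBS replicate 1 (adjusted p = 0.0805).

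Batf3, Gfi1, Cebpb and Spi1 also had lower levels on every Ly-6D+ PBS array than on any Ly-6D- PBS array, without passing. Batf3 differed by -0.92 (adjusted p = 0.0646), from levels of 3.67 and 3.49 in Ly-6D+ PBS CLPs against 4.39, 4.57 and 4.55 in Ly-6D- PBS CLPs. It passed without Ly-6D- CpG replicate 3 (adjusted p = 0.00390), in a fit of these 2 groups alone (adjusted p = 0.0386) and with the dimmest genes left out (adjusted p = 0.0456). Leaving out that replicate left the Batf3 difference unchanged and lowered its SE from 0.22 to 0.12, so that pass is built in. Gfi1 had levels of 5.18 and 5.49 in Ly-6D+ PBS CLPs, against 5.98, 5.76 and 6.07 in Ly-6D- PBS CLPs (difference -0.60, SE 0.14, adjusted p = 0.0598). Cebpb differed by -0.64 (adjusted p = 0.186) and Spi1 by -0.45 (adjusted p = 0.187). Klf4 differed by -0.01, with a 95% interval from -0.39 to 0.38, and its arrays overlapped.

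After CpG, 5 of 8 factors (Cebpa, Klf4, Cebpb, Batf3 and Spi1) were lower in Ly-6D+ than in Ly-6D- CLPs. Of all genes 0.938% passed as lower and 1.2% as higher. An unadjusted p under 0.05 in limma was reached by 6 of 8 factors and 12.7% of all genes. The median difference of the 8 factors was -0.84, against -0.00 over all genes. The arrays were fully separated for 6 of 8 factors, the 5 above and Irf8, against 16.9% of all genes.

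Cebpa had levels of 5.78, 5.49 and 5.47 in Ly-6D+ CpG CLPs, against 7.38, 7.13 and 6.82 in Ly-6D- CpG CLPs. It was 2.89-fold lower (log2 -1.53, SE 0.16, adjusted p = 5.74e-04). Klf4 had levels of 5.44, 5.62 and 5.47 in Ly-6D+ CpG CLPs, against 7.08, 6.87 and 6.47 in Ly-6D- CpG CLPs, and was 2.46-fold lower (log2 -1.30, SE 0.16, adjusted p = 0.00142). The calls of Cebpa and Klf4 held without each of the 11 arrays in turn and in the fit of these 2 groups alone. Without Ly-6D- CpG replicate 3 Cebpa differed by -1.68 (adjusted p = 6.84e-04) and Klf4 by -1.47 (adjusted p = 7.17e-04). Spi1 was 1.73-fold lower (log2 -0.79, SE 0.13, adjusted p = 0.00944), from levels of 8.03, 8.10 and 8.08 in Ly-6D+ CpG CLPs against 9.06, 8.97 and 8.55 in Ly-6D- CpG CLPs. Its Ly-6D+ arrays lay close together, while the Ly-6D- arrays were spread more widely. The call ended without Ly-6D- CpG replicate 2 (adjusted p = 0.0518) and in the fit of the 2 groups alone (adjusted p = 0.0642), and without Ly-6D- CpG replicate 3 the difference was -0.95 (adjusted p = 0.00137).

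Cebpb was 1.98-fold lower in Ly-6D+ CpG CLPs (log2 -0.98, SE 0.18, adjusted p = 0.0188), from levels of 5.82, 6.26 and 5.88 in Ly-6D+ CpG CLPs against 6.99, 7.33 and 6.59 in Ly-6D- CpG CLPs. Without Ly-6D- CpG replicate 3 it differed by -1.18 (adjusted p = 0.00560). The call ended when any 1 of replicates 1 and 3 of the Ly-6D+ CpG group or replicates 1 and 2 of the Ly-6D- CpG group was left out (adjusted p up to 0.0852) and in the fit of the 2 groups alone (adjusted p = 0.107). Batf3 was 1.85-fold lower (log2 -0.89, SE 0.19, adjusted p = 0.0460), from levels of 4.55, 4.55 and 4.47 in Ly-6D+ CpG CLPs against 5.82, 5.54 and 4.87 in Ly-6D- CpG CLPs. That call was the least stable of the 5, since it held without Ly-6D- CpG replicate 3 (log2 -1.16, adjusted p = 0.00110) and ended without any other 1 array (adjusted p up to 0.170). Irf8 stood higher on every Ly-6D+ array, at 11.89, 11.80 and 11.84 in Ly-6D+ CpG CLPs against 11.65, 11.57 and 11.59 in Ly-6D- CpG CLPs, and did not pass (log2 0.24, SE 0.09, adjusted p = 0.281). The second Irf8 probe set gave 10.56, 10.52 and 10.71 in Ly-6D+ CpG CLPs, against 10.13, 10.02 and 10.00 in Ly-6D- CpG CLPs, and the mean of all Irf8 probe sets differed by 0.39. With a variance trend and robust estimation the difference of 0.24 passed (adjusted p = 0.0425). The Gfi1 arrays overlapped (difference -0.23), as did those of Zbtb46 (difference 0.01, 95% interval -0.26 to 0.28).

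Across the 4 groups together, the F test passed for 6 of 8 factors, with 3.85% of all genes passing. The adjusted p was 5.47e-04 for Cebpa, 0.00142 for Klf4, 0.00468 for Batf3, 0.00502 for Irf8 and 0.0102 for both Spi1 and Cebpb, and it was 0.0960 for Gfi1 and 0.821 for Zbtb46. The order of the group means took different forms. For Spi1, Cebpa and Cebpb it ran, from high to low, Ly-6D- CpG, Ly-6D- PBS, Ly-6D+ CpG and Ly-6D+ PBS. Within that order the step from Ly-6D- CpG to Ly-6D- PBS passed for none of these 3 genes, and neither did the step between the Ly-6D+ groups. The step in the middle, between the Ly-6D- PBS and Ly-6D+ CpG groups, was not tested.

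Cebpa averaged 5.58 ± 0.18 (SD, n = 3) in Ly-6D+ CpG, 5.46 ± 0.08 (n = 2) in Ly-6D+ PBS, 7.11 ± 0.28 (n = 3) in Ly-6D- CpG and 6.63 ± 0.21 (n = 3) in Ly-6D- PBS CLPs. Klf4 had 1 high group, Ly-6D- CpG at 6.81 ± 0.31 (SD, n = 3). The means of its other groups, 5.51 in Ly-6D+ CpG, 5.46 in Ly-6D+ PBS and 5.46 in Ly-6D- PBS CLPs, were closer to each other than their arrays were. Batf3 averaged 4.52 ± 0.05 (SD, n = 3) in Ly-6D+ CpG, 3.58 ± 0.12 (n = 2) in Ly-6D+ PBS, 5.41 ± 0.49 (n = 3) in Ly-6D- CpG and 4.50 ± 0.10 (n = 3) in Ly-6D- PBS CLPs, so that the Ly-6D+ CpG and Ly-6D- PBS means lay together in the middle. Irf8 averaged 11.84 ± 0.04 (SD, n = 3) in Ly-6D+ CpG, 11.94 ± 0.01 (n = 2) in Ly-6D+ PBS, 11.60 ± 0.04 (n = 3) in Ly-6D- CpG and 11.22 ± 0.13 (n = 3) in Ly-6D- PBS CLPs, with both Ly-6D+ means above both Ly-6D- means, the reverse of Cebpa. Zbtb46 stayed between 3.24 and 3.76 on all 11 arrays, below the array medians (3.85 to 3.96).

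The genes whose levels followed each factor most closely over the 11 arrays are a description only, since the arrays share their groups. For Klf4 they were S1pr2 (Pearson r 0.984), Csrp2 (0.973) and Cfp, the complement factor properdin (0.971). For Spi1 they were F13a1, the coagulation factor XIII chain made by monocytes (0.974), Mapkapk3 (0.964) and Agk (0.962). For Irf8 they were E2f8 (0.973), Tlr9, the receptor for CpG DNA (0.964), and Cd300c (0.962). Tlr9 averaged 7.96 in Ly-6D+ CpG, 7.97 in Ly-6D+ PBS, 7.24 in Ly-6D- CpG and 6.37 in Ly-6D- PBS CLPs, the same order as Irf8 to within the spread of the 2 Ly-6D+ groups. For Batf3 they were Ckb (0.985), Hk2 (0.972) and Psmg4 (0.965), for Cebpa Glud1 (0.979), Emb (0.970) and Hnrnpll (0.967), and for Cebpb Ttyh2 (0.968), Pgk1 (0.967) and Psmb7 (0.965).

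Few relatives of the factors passed with CpG. Of 16 other KLF family genes, 1 fell in Ly-6D- CLPs, Klf3, a repressor of the family (log2 -0.72, adjusted p = 0.0412), where Klf4 rose, and the median of the 16 was 0.01. Only 12 or 5 of all genes passed in this comparison without Ly-6D- CpG replicate 1 or 2. Here and below, the calls of list genes are not given for those fits, so their stability is not shown. In the remaining lists of relatives 0 genes passed with CpG in either population in limma. These lists were 6 other IRF genes, 4 other C/EBP genes, and 16 relatives and partners of the ETS, BATF, GFI, ZEB and ZBTB factors. The last list held 25 regulators of myeloid and dendritic fate. It shared Irf4 and Etv6 with the lists before it, and Gata2 with the mast cell list below. At an unadjusted p under 0.05 there were 2, 1, 4 and 4 genes of these lists in Ly-6D- CLPs, and 1, 0, 2 and 5 in Ly-6D+ CLPs, where 12% and 6.51% of all genes did so in Ly-6D- and Ly-6D+ CLPs. With Ly-6D- CpG replicate 3 left out, 2 of the 16 relatives and partners fell (Ets1 and Zbtb20) and 1 of the 25 regulators rose (Id2) in Ly-6D- CLPs. Between the populations, Spib, the ETS factor nearest to PU.1 and one that plasmacytoid dendritic and B lineage cells use, was 14.8-fold higher in Ly-6D+ CLPs after PBS (adjusted p = 7.52e-04) and 7.99-fold higher after CpG (adjusted p = 0.00154), where Spi1 differed by -0.45 and -0.79 on the log2 scale. Klf2, a factor of lymphocyte quiescence and traffic, was higher in Ly-6D+ CLPs, 2.61-fold after PBS and 2.66-fold after CpG, opposite to Klf4 after CpG. Irf4, a factor of B and dendritic cells, was 2.28-fold higher after CpG (adjusted p = 0.00801), and Tcf4, the plasmacytoid dendritic and B lineage E protein, 1.56-fold higher (adjusted p = 0.00781). Nfil3, a regulator of innate lymphoid and dendritic fate, was 2.81-fold lower in Ly-6D+ CLPs after PBS and 2.18-fold lower after CpG, and Gata2, a factor of stem and mast cells, 3.59-fold lower after PBS and 2.11-fold lower after CpG. Tfec, a relative of the factor MITF, was 5.24-fold lower after CpG (adjusted p = 0.00916). The Gata2 call after CpG ended without Ly-6D- CpG replicate 3 (adjusted p = 0.0837).

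Genes typical of the cells that these factors help to form were counted in the same fit, in which the median of all genes lay between -0.01 and 0.00 in every comparison. Of 21 monocyte and macrophage genes, 4 rose with CpG in Ly-6D- CLPs and 0 fell, with a list median of 0.52. They were F13a1 (3.50-fold), the chemokine receptor gene Ccr2 (2.97-fold), Ms4a6c (2.43-fold) and Ly6c2 (2.12-fold), with adjusted p from 0.0101 to 0.0300. Without Ly-6D- CpG replicate 3, the count was 8 of 21 and the median 0.54, in a fit where 309 of all genes passed. Most of the 21 were lowest on that array, so a rise on leaving it out is built in. Without Ly-6D- CpG replicate 1 or 2, only 12 or 5 of all genes passed. With all arrays Csf1r, the macrophage colony-stimulating factor receptor gene, was 2.11-fold higher after CpG in Ly-6D- CLPs without passing (adjusted p = 0.0524). In Ly-6D+ CLPs 0 of the 21 passed with CpG in limma, and the median was 0.22. At an unadjusted p under 0.05 there were 6 in Ly-6D+ and 11 in Ly-6D- CLPs, beside 6.51% and 12% of all genes. Without Ly-6D- CpG replicate 3, 1 passed there, Ccr2 (1.89-fold higher, adjusted p = 0.0466). The summed linear level of the list was 7069 to 8091 in Ly-6D+ CpG arrays, against 6056 to 6581 in Ly-6D+ PBS arrays. The sums of the CpG and PBS groups thus did not overlap in either population. Such separation was also seen for 20.4% of all single genes in Ly-6D+ and 15.7% in Ly-6D- CLPs. A linear sum weighs the brightest genes most. Between the populations after CpG, 4 were lower in Ly-6D+ CLPs (F13a1, Ccr2, Csf1r and Ms4a6c), as Cebpa, Klf4, Cebpb, Batf3 and Spi1 were. After PBS 2 were lower (F13a1 and Ccr2) and 1 higher (Cybb).

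Of 18 granulocyte genes 0 passed with CpG in either population in limma, with 5 in Ly-6D- and 1 in Ly-6D+ CLPs at an unadjusted p under 0.05, beside 12% and 6.51% of all genes. Cebpa and Gfi1 did not pass with CpG either. After CpG, 4 were lower in Ly-6D+ than in Ly-6D- CLPs: Ctsg (5.13-fold), Prtn3 (3.82-fold), Mpo (3.44-fold), which encode primary granule proteins, and Csf3r (2.04-fold), the granulocyte growth factor receptor gene. After PBS 1 was lower, Csf3r (2.89-fold). The summed linear level of the list was 14926 to 17343 in Ly-6D+ CpG, 13987 to 18790 in Ly-6D+ PBS, 18407 to 21387 in Ly-6D- CpG and 17929 to 20229 in Ly-6D- PBS arrays. Of 17 conventional dendritic genes 0 passed with CpG in limma, with 5 in Ly-6D- and 1 in Ly-6D+ CLPs at an unadjusted p under 0.05. Itgax, which encodes the integrin CD11c, was 2.61-fold higher in Ly-6D+ CLPs after PBS and 1.81-fold higher after CpG, and Btla was 1.97-fold lower after PBS. With Ly-6D- CpG replicate 3 left out, 1 granulocyte gene (Prtn3) and 1 conventional dendritic gene (Naaa) rose with CpG in Ly-6D- CLPs. After CpG the calls of Csf3r (adjusted p = 0.0589) and Itgax (adjusted p = 0.0578) between the populations then ended, and Naaa was lower in Ly-6D+ CLPs (adjusted p = 0.0164).

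Of 17 plasmacytoid dendritic genes 9 passed as higher in the Ly-6D+ population after PBS, and 9 after CpG, with medians of 0.92 and 0.72, in the direction of Irf8. The list holds Spib and also Ly6d, the sorting gene; without Ly6d 8 of 16 were higher after each treatment, with medians of 0.75 and 0.68. Siglech, a lectin of plasmacytoid dendritic cells, was 6.80-fold higher after PBS and 7.73-fold higher after CpG. The summed linear level of those 16 was 12671 to 13501 in Ly-6D+ CpG and 12868 to 13418 in Ly-6D+ PBS arrays, against 7051 to 7249 in Ly-6D- CpG and 6873 to 7521 in Ly-6D- PBS arrays. With CpG in Ly-6D- CLPs 1 of the 17 rose, Cd300c (2.31-fold), and 1 fell, Tlr7 (1.68-fold), and Ccr9 fell as well once Ly-6D- CpG replicate 3 was left out (adjusted p = 0.0194). With all arrays 11 of the 17 had an unadjusted p under 0.05 there in limma, beside 12% of all genes. Of the 17, 9 were higher and 8 lower. A list of 17 lymphoid regulators holds mostly transcription factors, with the receptor gene Notch1 and the recombination gene Rag2. Of these 6 were higher and 1, the T lineage factor Gata3 (1.49-fold), lower in Ly-6D+ CLPs after PBS, and 8 were higher after CpG, the B lineage factors Ebf1 (12.5-fold after PBS, 14.4-fold after CpG) and Pax5 (5.96-fold and 5.77-fold) among them. With CpG in Ly-6D- CLPs Rag2 fell (log2 -0.75, adjusted p = 0.0221). Once Ly-6D- CpG replicate 3 was left out 4 of the 17 fell there, with Ebf1, Pou2af1 and Notch1 added. In the fit without that replicate Gata3 after PBS no longer passed (adjusted p = 0.0680). Pou2af1 differed by -1.89 with CpG in Ly-6D+ CLPs (adjusted p = 0.12), and passed there without the replicate (adjusted p = 0.0430). In Ly-6D- CLPs it differed by -0.86 with all arrays. In the average of both populations Pou2af1 (2.59-fold, adjusted p = 0.0309) and Rag2 (1.36-fold, adjusted p = 0.0469) passed as lower. Of 7 CLP marker genes 2 fell with CpG in Ly-6D- CLPs with all arrays, Rag2 again and Il7r (log2 -0.81, adjusted p = 0.0300). All 7 were lower there, with a median of -0.38. Each had an unadjusted p under 0.05 in limma, beside 12% of all genes. The summed linear level of the 7 was 7235 to 8768 in Ly-6D- CpG arrays, against 10087 to 10450 in Ly-6D- PBS arrays.

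**Figure D3:**
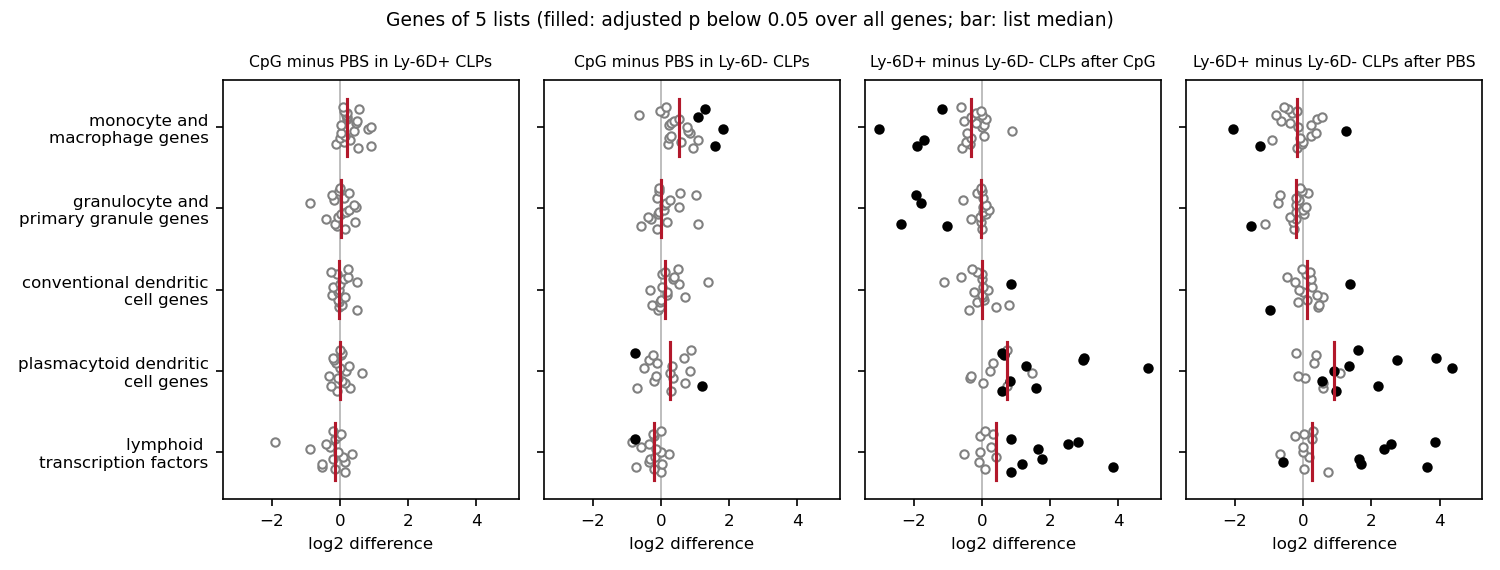
Log2 difference (x axis) of every measured gene of 5 lists (rows) in 4 comparisons; filled points have an adjusted p below 0.05 over all genes and the red bar is the list median. With CpG, 4 monocyte genes are filled on the higher side in Ly-6D- CLPs, and 9 plasmacytoid dendritic genes are filled on the higher side between the populations after each treatment.

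Markers of other cell types were read beside these results, and their part in the factors' levels was not tested. With CpG 0 of 8 erythroid and megakaryocyte, 0 of 8 T cell, 0 of 8 NK cell, 0 of 8 mature B and plasma cell and 0 of 6 mast cell and basophil genes passed in either population in limma. At an unadjusted p under 0.05 there were 1, 3, 2, 3 and 0 genes of these lists in Ly-6D- CLPs, and 0, 2, 2, 1 and 2 in Ly-6D+ CLPs, beside 12% and 6.51% of all genes. With Ly-6D- CpG replicate 3 left out, the T cell gene Lat fell (adjusted p = 0.00727) and the NK cell gene Klrk1 rose (adjusted p = 0.0448) in Ly-6D- CLPs. Between the populations, 3 of 6 mast cell and basophil genes were lower in the Ly-6D+ population after PBS, and 3 after CpG (Cpa3, Gata2 and Mcpt8 each time), in the direction of Cebpa; after CpG 1 of the 3, Cpa3, passed without Ly-6D- CpG replicate 3. Their summed linear level was 137 to 186 in Ly-6D+ CpG and 112 to 122 in Ly-6D+ PBS arrays, against 341 to 405 in Ly-6D- CpG and 355 to 479 in Ly-6D- PBS arrays. The erythroid and megakaryocyte genes Car2 and Gp9 were lower in Ly-6D+ CLPs after PBS and Car2 after CpG. Higher in Ly-6D+ CLPs were the NK cell gene Klrd1 (3.29-fold after PBS, 2.88-fold after CpG) and the T cell gene Thy1 (2.52-fold and 1.67-fold). So were the mature B and plasma cell genes Cd22 after PBS (1.855-fold) and Sdc1 after CpG (2.50-fold). Without Ly-6D- CpG replicate 3 the calls of Thy1 after CpG (adjusted p = 0.0736) and Cd22 after PBS (adjusted p = 0.0534) ended. Of 13 inflammatory cytokine genes 1 fell with CpG in Ly-6D- CLPs, Il12a (log2 -0.73, adjusted p = 0.0444), and 1 rose in the average of both populations, Ccl5 (3.18-fold, adjusted p = 0.0315). In Ly-6D- CLPs Ccl3 also fell (adjusted p = 0.0137) and Ccl5 rose (adjusted p = 0.0168) when Ly-6D- CpG replicate 3 was left out.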

How the data were processed

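RNA of sorted CLPs was amplified (SPIA) and hybridised to 11 arrays, per the labels. The deposited values are log2 levels. Per the submitters' processing notes, the authors used Partek and RMA, whose further settings are unknown here. Of 41345 probe sets, 23521 carried exactly 1 symbol in the supplied platform table; each of 22180 genes was represented by the one with the highest mean over all arrays. The array medians lay between 3.85 and 3.96, and the number of arrays limits the precision.

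One linear model with a mean per group was fitted to all 11 arrays with limma 3.58.1 in R 4.3.3 (lmFit, eBayes, 7 residual and 3.48 prior degrees of freedom), with 6 contrasts. The threshold was an adjusted p (Benjamini-Hochberg, over all 22180 genes) below 0.05. SE comes from the moderated spread. The fit was tested on simulated data. The planted changes were larger than any difference of the factors given here, so the test does not show how well smaller ones are found. Python 3.11.15, pandas 2.3.3 and matplotlib 3.10.9 were used otherwise.

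The members and gene lists were chosen with earlier results of these data known. Named in the text are every measured member, for each member with a passing F test the 3 genes with the highest Pearson r, and, within lists, mainly genes that passed, by smallest p. Alternatives were the mean of all probe sets, leaving out the dimmest 33.3% of genes, a variance trend with robust estimation, array weights, further quantile normalization, median centring, an adjusted p below 0.10, the replicate number as a block, only the groups compared, the arrays numbered 3 left out, and each array left out in turn.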

Additional observations from a re-analysis of the deposited data

How the results depend on the processing

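The counts of factors that passed depended on single arrays. With CpG in Ly-6D- CLPs the count was 1, and it was 3 at an adjusted p below 0.10, 4 with a variance trend and robust estimation, 2 with array weights, 2 without the arrays numbered 3 and 0 with only the groups compared; leaving out each array in turn gave 0 to 4. With CpG in Ly-6D+ CLPs it was 0, with 0 to 1 on leaving out arrays. For the average it was 2, with 1 under median centring and 0 to 4 on leaving out arrays. Between the populations after PBS it was 2, with 4 at an adjusted p below 0.10, 4 without the dimmest genes and 1 to 3 on leaving out arrays. After CpG it was 5, with 2 in a fit of only the groups compared and 2 to 5 on leaving out arrays. The difference of the CpG effects gave 0 factors and the F test of the 4 groups stayed within 1.5 times its 6 under every alternative run for them. No factor that passed changed sign under any alternative run. The cause of these changes was not tested.

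Whether replicate numbers pair the arrays was not settled. Of 15 same-numbered pairs across groups, 2 had deviations from their group means correlated above 0.1. The median r was 0.0363, against -0.0407 for other pairs. Most of the same-numbered pairs set CpG against PBS arrays, which cannot share mice. Same-numbered Ly-6D+ and Ly-6D- arrays had r of 0.0584, 0.0961 and 0.1756 after CpG, and -0.0065 and 0.0275 after PBS. With the replicate block the counts were 1 (CpG in Ly-6D- CLPs), 0 (CpG in Ly-6D+ CLPs), 2 (average), 0 (difference), 2 (populations after PBS), 4 (after CpG) and 6 (F test), and the 1 call lost was Batf3 after CpG (adjusted p = 0.0507).

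Counts over all genes moved as well. With CpG in Ly-6D- CLPs 121 genes passed, 4 in a fit of only the groups compared, 425 with a variance trend and 5 to 309 on leaving out arrays; for the average 107 passed, 302 with a variance trend and 6 to 216 on leaving out arrays. Between the populations 439 passed after PBS, 190 in a fit of only the groups compared, 697 at an adjusted p below 0.10 and 185 to 416 on leaving out arrays. After CpG 474 passed, 264 in a fit of only the groups compared, 727 at an adjusted p below 0.10 and 264 to 516 on leaving out arrays. With CpG in Ly-6D+ CLPs 6 passed, 0 in a fit of only the groups compared, 18 with a variance trend and 4 to 16 on leaving out arrays. With 1 of the Ly-6D+ PBS arrays left out, the lone array was assumed to vary like the other groups. No detection values were used, so how far a factor stood above background is unknown.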
